A study of Mus musculus with 12 samples.

Results

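The insulin-like growth factor (IGF) axis was followed in mouse pre-iPSCs, cells stalled late in reprogramming, through 10 genes: the IGF binding proteins Igfbp2, Igfbp3, Igfbp4, Igfbp5, Igfbp6 and Igfbp7, the ligand Igf1, the receptor Igf1r and the receptor substrates Irs1 and Irs2. They were taken by symbol from the 20325 genes of the deposited tables, and all 10 were found there. Partially reprogrammed cells were kept for 48 h in serum-containing embryonic stem cell medium under 4 conditions: the solvent DMSO as the control, ascorbic acid (AA, 50 μg/ml), the inhibitor pair called 2i (a MEK inhibitor at 1 μM and a GSK inhibitor at 3 μM), and both together (AA+2i). Each condition had 3 biological replicates, lettered A, B and C, and each gave 1 RNA library. AA is a cofactor of the dioxygenases that demethylate histones and oxidise 5-methylcytosine, MEK activates ERK, and GSK inhibition raises β-catenin. The question was what each agent, and the pair of them, did to the genes through which these cells bind, sense and relay IGF.

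All 4 conditions started from pre-iPSCs. The study's methods describe fibroblast lines, picked as ESC-like colonies with a silent Nanog-GFP reporter after retroviral Oct4, Sox2, c-Myc and Klf4, and astrocyte lines without that reporter, and the labels do not say which kind was used here. They were kept on irradiated feeder cells before the experiment and were treated without feeders. The labels do not say whether all 3 replicates came from 1 line, so each condition may stand for a single clone. In bulk RNA, fewer cells of a kind and less RNA per cell cannot be told apart.

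IGF1 and IGF2 bind the IGF1 receptor, a tyrosine kinase that phosphorylates the insulin receptor substrates IRS1 and IRS2 and thereby engages PI3K, AKT and ERK. Outside the cell most IGF is held by binding proteins, which keep the ligand from the receptor or deliver it when proteases such as PAPPA cut them. Igfbp7 is a more distant relative that binds IGF weakly. In embryonic stem cells IGF signalling is known to favour survival and growth.

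The libraries held between 16173322 and 54392719 expected counts, with a median of 21854761. With 2i, 2 of 6 ERK target genes fell and 3 of 4 Wnt target genes rose by edgeR, where 4.42% of all tested genes were called, and with the replicate letter as a block in the fit 5 fell and 4 rose, where 13.3% were. With AA+2i 3 of the ERK targets fell and 3 of the Wnt targets rose (8.34% of all called). With AA 0 of either list were called by edgeR or DESeq2, and 0 at an unadjusted p under 0.05 by edgeR. Feeder carry-over was looked for because fibroblasts express several IGF binding proteins. The 14 fibroblast markers summed to between 11.03 and 29.1 TPM (expression per transcript length, scaled to the same total in each library) over the 12 libraries, and 8 or 9 of them, Dcn, Lum, Col3a1, Pdgfra, Pdgfrb and Postn among them, had means under 1 TPM in every condition. Of the 11 fibroblast markers tested, Col3a1 was called with AA+2i (up, while staying under 1 TPM), and 0 with AA or 2i by edgeR (6 and 3 at an unadjusted p under 0.05; 0 and 2 by DESeq2). Under the block Fbn1 was called down with AA, and Col3a1 up and Thy1 down with 2i. With the block and a curve on transcript GC content for each library, Postn and Prrx1 were called down with AA as well. Their part in the results was not tested. The 6 primitive endoderm markers all had means under 1 TPM and summed to at most 1.69 TPM. The 10 markers of pluripotent and late reprogramming cells summed to between 2027 and 9960 TPM, most of it Pou5f1 (Oct4). Pou5f1 had means of 5111 TPM in DMSO and 3107 TPM with AA+2i, beside mean sums of 5331 and 3541 TPM. Reads of the introduced Oct4 were not separated from it. Fut4 was under 1 TPM in every condition, Esrrb in DMSO, AA and 2i, and Lin28a with AA+2i. The 12 libraries also differed in the level of GC-rich transcripts, with DMSO A and AA A the lowest. This touches Irs2, Igfbp2, Igfbp6, Igfbp4 and Igfbp7 most, whose transcripts hold between 58.6% and 63.6% G and C. At Irs2 the GC curve was −2.39, 0.65 and −0.23 on the log2 scale in DMSO A, B and C. With AA+2i it was 0.68, −0.12 and 1.62. Recovery in the library and an effect of treatment on GC-rich transcripts cannot be told apart in these curves.

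In the DMSO cells Igfbp2 (mean 85.5 TPM) and Igfbp3 (82.4 TPM) had the highest means of the 10 genes, followed by Igf1r at 23.8 TPM and Igfbp7 at 9.77 TPM. The place of Igfbp2 rests on single libraries: it ranged from 8.42 to 167.9 TPM, its mean was 44.3 TPM without DMSO B, and in DMSO A it lay below Igf1r (23.4 TPM) and Irs1 (9.21 TPM). The receptor substrates Irs1 and Irs2 stood at 6.55 and 5.47 TPM, Igfbp4 at 2.65 TPM, and Igfbp5, Igfbp6 and Igf1 below 1 TPM. Igfbp3, Igfbp5, Igf1r and Irs1 have less GC-rich transcripts, and the GC curves of the libraries moved them less. In DMSO A the curve was −0.505 for Igfbp3 and −0.836 for Igf1r on the log2 scale. With the curves taken off, the SD within conditions narrowed for Igfbp3 (0.235 to 0.16) and stayed close for Igfbp5 (0.342 to 0.345). It widened for Igf1r (0.507 to 0.772) and Irs1 (0.529 to 0.595).

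**Figure D1:**
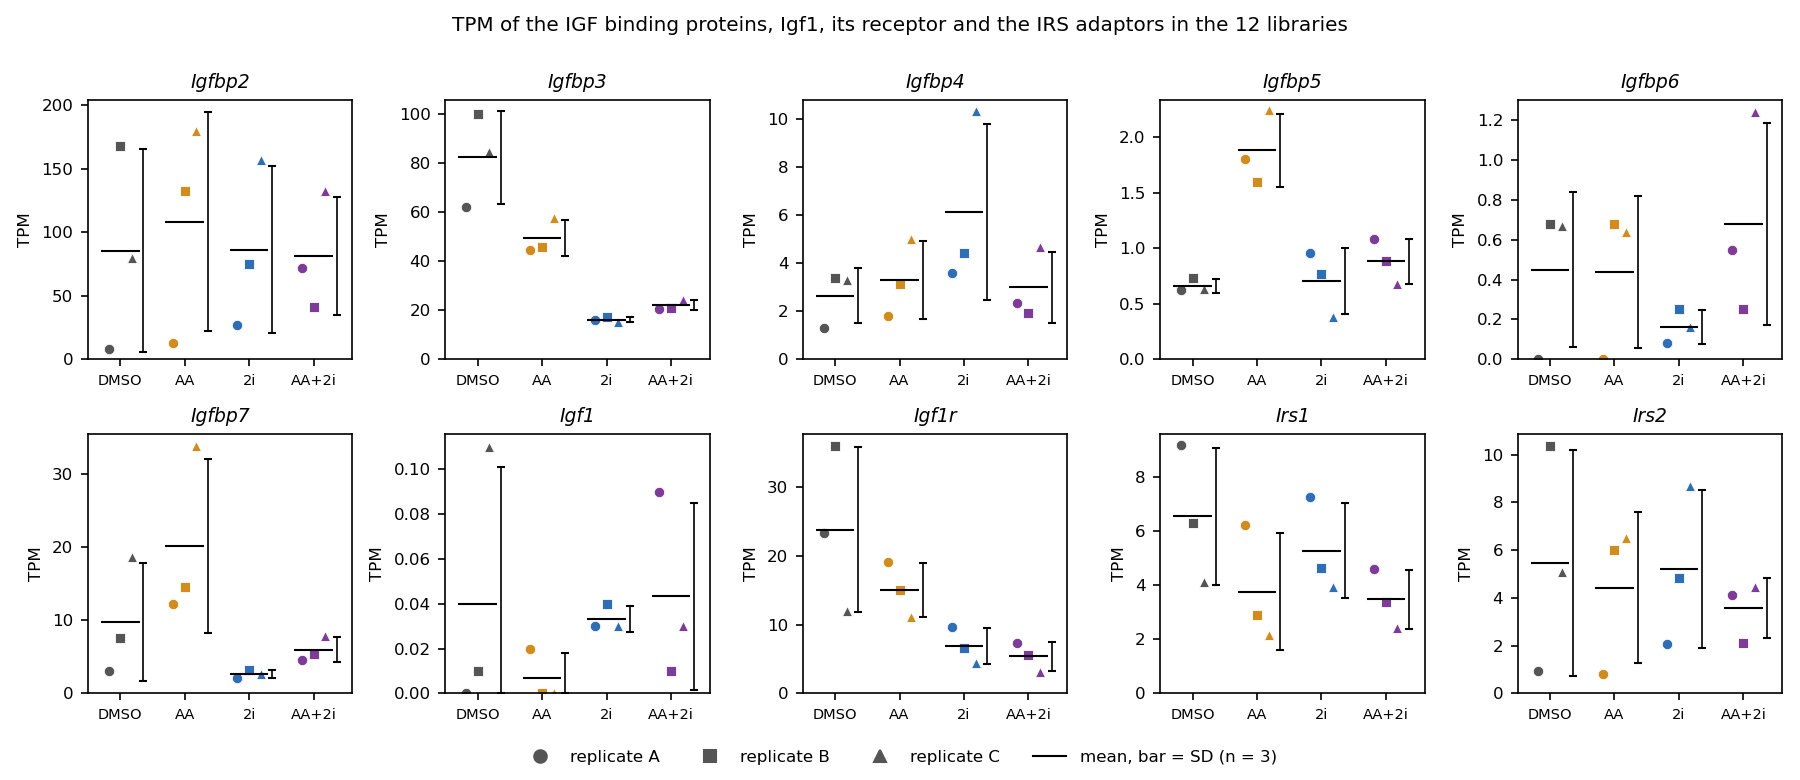
TPM of each gene (vertical axes, each from 0) in the DMSO, AA, 2i and AA+2i libraries, with replicates A, B and C as circles, squares and triangles. Lines are means and bars the SD of 3 libraries, drawn no lower than 0. Igfbp3 falls into 4 separate levels, from 62.3 to 100.3 TPM in DMSO down to 15.1 to 17.4 TPM with 2i, whereas the 3 libraries of a condition are widely scattered for Igfbp2 and Irs2.

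Igfbp3, the main carrier of IGF in serum, gave the clearest response. It lies on chromosome 11 (mm9, 7106089 to 7113926, minus strand). Its level was 62.3, 100.3 and 84.6 TPM in DMSO A, B and C, and 44.7, 45.9 and 57.8 TPM with AA. With 2i it was 15.95, 17.4 and 15.1 TPM, and with AA+2i 20.7, 21.1 and 24.4 TPM. The order was DMSO, AA, AA+2i and 2i, and no neighbours in it overlapped. Igfbp3 fell 4.44-fold with 2i (log2 fold change −2.15, SE 0.22, adjusted p = 0.000575 by edgeR's quasi-likelihood test) and 3.17-fold with AA+2i (−1.67, SE 0.22, adjusted p = 0.00119 by edgeR). Both calls stayed when any single library was left out, with adjusted p up to 0.00549 for 2i and 0.0101 for AA+2i. Without all 4 libraries of letter B, which include the deepest ones of DMSO and AA, the adjusted p rose to 0.15 and 0.148 while the changes were −2.07 and −1.52, and 11 and 18 genes in all were called. Between 359 and 5432 expected counts lay behind each of these values.

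With AA alone Igfbp3 was 1.61-fold lower (−0.69, SE 0.21, adjusted p = 0.215 by edgeR), although its highest AA library lay below its lowest DMSO library. With the replicate letter as a block the same change passed (−0.69, adjusted p = 0.0339 by edgeR), and with the block and a GC curve for each library it was −0.84 (adjusted p = 0.00263). Adding 2i to AA lowered Igfbp3 further, by 0.97 on the log2 scale (SE 0.22, adjusted p = 0.022 by edgeR). That call was lost without AA B, AA C, AA+2i A or AA+2i B, with adjusted p between 0.0595 and 0.1, and without any 1 letter. Adding AA to 2i went the other way: all 3 AA+2i libraries lay above all 3 of 2i, by 0.49 (SE 0.21, adjusted p = 0.496). The difference between the effect of AA with 2i and without it, the interaction, was 1.18 (SE 0.30, unadjusted p = 0.00252, adjusted p = 0.938 by edgeR), and it passed in the fit with GC curves and the replicate block (1.22, adjusted p = 0.0295). The fibroblast markers summed to 14.9 to 29.1 TPM in DMSO and 13.5 to 16.6 TPM with 2i, and with the replicate block Thy1 was called down and Col3a1 up with 2i, and Fbn1 down with AA. The part of these markers in the changes of Igfbp3 was not tested.

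Igfbp3 and Igf1r, which fell together with 2i, and Igfbp5, which rose with AA, are the genes the comparisons turn on, and the 250 bases before their RefSeq starts are given here 5′ to 3′ (GRCm38.p6, a later build than the mm9 of the counts). All 10 genes had an entry in the promoter table. Capitals mark matches on either strand to TGANTCA (AP-1), TCAAAG (the TCF/LEF core), GCGTGGGCG (EGR1), GGGCGG (Sp1), TGTTTAC (FOXO) and the TATA forms TATAAA and TATATA. A GCGTGGGCG that is followed by G also holds GGGCGG, and the TATA forms can overlap each other.
Igfbp3 promoter, chr11:7213924-7214173, minus strand: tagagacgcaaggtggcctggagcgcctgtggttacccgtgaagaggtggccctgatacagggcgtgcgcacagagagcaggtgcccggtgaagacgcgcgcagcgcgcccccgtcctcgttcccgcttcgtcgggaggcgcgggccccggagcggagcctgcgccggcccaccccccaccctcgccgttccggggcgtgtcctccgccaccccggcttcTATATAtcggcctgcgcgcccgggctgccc
Igf1r promoter, chr7:67952007-67952256, plus strand: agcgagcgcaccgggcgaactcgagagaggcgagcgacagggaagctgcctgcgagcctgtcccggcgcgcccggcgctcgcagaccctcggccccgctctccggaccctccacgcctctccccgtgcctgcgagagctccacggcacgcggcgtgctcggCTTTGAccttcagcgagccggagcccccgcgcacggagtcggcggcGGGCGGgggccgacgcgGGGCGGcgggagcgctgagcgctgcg
Igfbp5 promoter, chr1:72874866-72875115, minus strand: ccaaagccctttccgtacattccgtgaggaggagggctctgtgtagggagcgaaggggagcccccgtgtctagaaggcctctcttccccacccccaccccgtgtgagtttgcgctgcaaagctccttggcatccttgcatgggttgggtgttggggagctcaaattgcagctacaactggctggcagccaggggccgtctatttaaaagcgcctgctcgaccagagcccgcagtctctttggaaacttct

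The Igfbp3 window held 1 TATATA, a form found in 5.01% of the 32536 windows of this length, and 32 CpG dinucleotides. The Igf1r window held 1 match to TCAAAG, which 13.9% of all windows hold, and 2 to GGGCGG, which 33.0% hold. Its 42 CpGs were more than in 99.1% of all windows, against a median of 6. The Igfbp5 window had no match to any of these strings and 10 CpGs. AP-1, EGR1, FOXO and TATAAA strings were in 6.73%, 0.541%, 3.17% and 12.3% of all windows and in none of these 3. Each match is a description of letters and not of a bound site.

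Igfbp2, a binding protein with an integrin-binding motif, could not be resolved between conditions. Its level was 8.42, 167.9 and 80.1 TPM in DMSO A, B and C, 12.4, 132.8 and 179.8 TPM with AA, 26.6, 74.8 and 156.8 TPM with 2i and 71.85, 40.9 and 132.25 TPM with AA+2i. The 4 ranges overlap throughout, and the lowest libraries were DMSO A and AA A. The changes against DMSO were 0.48 (AA), 0.32 (2i) and 0.28 (AA+2i) on the log2 scale, each with an SE of 1.05 and the 95% interval for AA+2i running from −2.14 to 2.69. After the GC curves were taken off, the SD within conditions on the log2 scale went from 1.74 to 0.56, and the change with AA+2i was −0.56 (SE 0.36, adjusted p = 0.303 by edgeR). A difference within these intervals was not detectable here.

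In the make-up of the binding protein mRNA, the mean share of Igfbp3 was lower with each treatment than in DMSO. As a share of the summed TPM of the 6 binding proteins, Igfbp3 made up 82.3%, 35.8% and 45.0% in DMSO A, B and C and a mean of 54.4% ± 24.7 (SD, n = 3). The mean was 35.1% ± 22.8 in the AA libraries, 19.2% ± 12.2 in those of 2i and 21.6% ± 7.91 in those of AA+2i (SD, n = 3 each). Igfbp2 made up 37.9% ± 24.7 in DMSO and 70.9% ± 15.6 with 2i (SD, n = 3). Within each letter the ratio of Igfbp2 to Igfbp3 was higher with 2i than with DMSO, 1.67 against 0.135 in A, 4.31 against 1.67 in B and 10.4 against 0.947 in C. Igfbp2 itself rose from DMSO to 2i in A (8.42 to 26.6 TPM) and C (80.1 to 156.8 TPM) and fell in B (167.9 to 74.8 TPM). Shares of one sum are tied to each other and, through Igfbp2, to the level of GC-rich transcripts in each library, so they describe the libraries and were not tested.

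**Figure D2:**
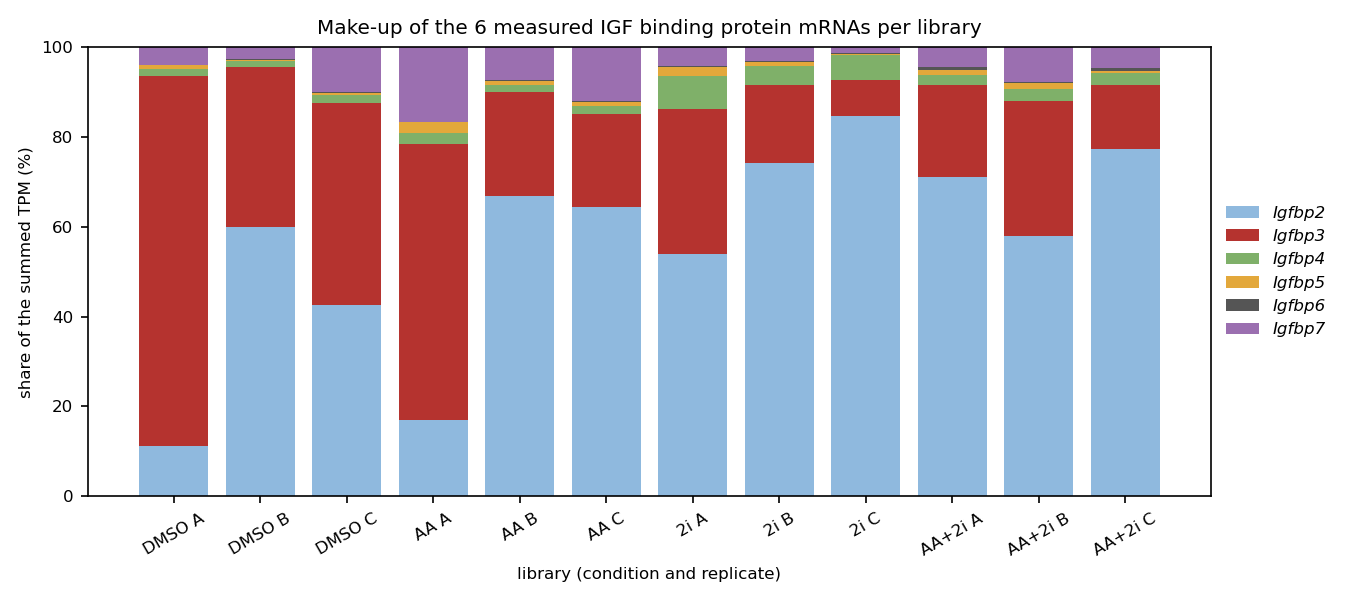
Share of each IGF binding protein in the summed TPM of the 6 (vertical axis, %) in each of the 12 libraries (horizontal axis). Igfbp2 and Igfbp3 together fill most of every bar, and the Igfbp3 part is 8.15% to 32.3% in the 2i libraries and 35.8% to 82.3% in the DMSO libraries.

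Igfbp5, a binding protein that attaches to the extracellular matrix, was the one gene of the 10 called with AA. It lies on chromosome 1 (mm9, 72904506 to 72921458, minus strand), 5457 bases from Igfbp2 on the opposite strand. It stood at 0.62, 0.73 and 0.63 TPM in DMSO, 1.80, 1.60 and 2.24 TPM with AA, 0.96, 0.77 and 0.38 TPM with 2i and 1.08, 0.88 and 0.68 TPM with AA+2i. The AA libraries lay above those of the 3 other conditions, which overlapped each other. Igfbp5 rose 2.91-fold with AA (1.54, SE 0.31, adjusted p = 0.0364 by edgeR), from 30 to 96 expected counts in the DMSO libraries to 102 to 264 with AA. With the replicate block the adjusted p was 0.0194. Leaving out 1 library lost the call for DMSO A, DMSO B, DMSO C, AA A, AA B, AA C, 2i B, AA+2i A, AA+2i B and AA+2i C, with changes between 1.37 and 1.65 and adjusted p between 0.0551 and 0.143. The call was also lost without letter A, B or C (adjusted p between 0.162 and 0.874). With AA+2i the change was 0.61 (SE 0.31, adjusted p = 0.235), and adding 2i to AA gave −0.93 (SE 0.30, adjusted p = 0.108 by edgeR). The interaction was −1.20 (SE 0.43, unadjusted p = 0.0175, adjusted p = 1 by edgeR).

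The changes of Igfbp7 with AA and with 2i had opposite signs, with wide errors. It was 3.03, 7.63 and 18.7 TPM in DMSO, 12.2, 14.5 and 33.8 TPM with AA, 2.12, 3.16 and 2.59 TPM with 2i and 4.60, 5.42 and 7.86 TPM with AA+2i. In each letter the AA library was above the DMSO library and the 2i library below it, while the DMSO range overlapped all 3 others. The change was 1.07 (SE 0.61, adjusted p = 0.728) with AA and −1.71 (SE 0.64, adjusted p = 0.201) with 2i by edgeR. With the replicate block it was −1.39 with 2i (adjusted p = 0.0379) and 1.19 with AA (adjusted p = 0.0961), and with the block and GC curves −1.97 (adjusted p = 0.0182) and 0.86 (adjusted p = 0.267). All 3 AA+2i libraries lay below the AA libraries, by 1.55 (SE 0.62, adjusted p = 0.214), and with GC curves alone that difference passed (−2.07, adjusted p = 0.0124 by edgeR).

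Igfbp4, an inhibitory binding protein and the best-known substrate of PAPPA, was 1.31, 3.36 and 3.28 TPM in DMSO and 3.6, 4.42 and 10.3 TPM with 2i. It was 1.78, 3.14 and 5.01 TPM with AA and 2.35, 1.94 and 4.67 TPM with AA+2i. The 2i libraries lay above those of DMSO without overlap, and the change was 1.43 (SE 0.60, adjusted p = 0.259 by edgeR). With the replicate block the rise with 2i passed (1.31, adjusted p = 0.0169), and with GC curves as well it was 0.85 (adjusted p = 0.0267). AA+2i stood 0.99 below 2i (log2 difference −0.99, SE 0.59, adjusted p = 0.796), and −1.30 with GC curves (adjusted p = 0.0421 by edgeR). Igfbp6, which prefers IGF2, was listed at 0 in DMSO A and AA A and at most at 1.24 TPM elsewhere, with no change called in any comparison.

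The ligand Igf1 was close to absent. It was listed at 0 to 0.11 TPM, with at most 3.1 expected counts in any library, and it did not meet the count minimum of 10 counts in 3 libraries, so 9 of the 10 genes were tested. At this depth no difference of Igf1 between conditions was detectable.

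Igf1r, the receptor, is a long gene on chromosome 7 (mm9, 75097713 to 75371484, plus strand). It stood at 23.4, 36.0 and 12.01 TPM in DMSO, 19.0, 15.0 and 11.1 TPM with AA, 9.61, 6.65 and 4.48 TPM with 2i and 7.38, 5.62 and 3.10 TPM with AA+2i. Both conditions with 2i lay below both without it, DMSO and AA overlapped, and 2i and AA+2i overlapped. Igf1r fell 2.98-fold with 2i (−1.58, SE 0.38, adjusted p = 0.0401) and 3.82-fold with AA+2i (−1.93, SE 0.38, adjusted p = 0.0105) by edgeR. The replicate block gave −1.55 with 2i (adjusted p = 0.00124), and with GC curves and without DMSO A, a setting added after the data were seen, the 2i call was lost (−1.40, adjusted p = 0.134 by edgeR). Without the block, the 2i call was lost when DMSO A, DMSO B, AA B, 2i A, 2i B, 2i C, AA+2i A or AA+2i B was left out, with adjusted p between 0.0505 and 0.162 and changes between −1.87 and −1.27 over all single libraries. The 2i call was also lost without letter A, B or C (adjusted p between 0.074 and 0.686). The AA+2i call was lost without AA+2i C (adjusted p = 0.0508) or without letter B (adjusted p = 0.302). With AA alone the change was −0.61 (SE 0.37, adjusted p = 0.765), and with GC curves and the block −0.75 (adjusted p = 0.0107 by edgeR). Taking off the GC curves widened its SD within conditions from 0.51 to 0.77 on the log2 scale. Adding AA to 2i changed it by −0.36 (SE 0.37, adjusted p = 0.969) and adding 2i to AA by −1.33 (SE 0.37, adjusted p = 0.0641).

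The receptor substrates relay the signal of Igf1r. Irs1, a docking protein that recruits PI3K, was 9.21, 6.31 and 4.13 TPM in DMSO and 6.23, 2.90 and 2.16 TPM with AA. With 2i it was 7.27, 4.64 and 3.95 TPM and with AA+2i 4.61, 3.40 and 2.42 TPM. In every condition A was the highest library and C the lowest, and the 4 ranges overlapped. The change with AA was −0.80 (SE 0.41, adjusted p = 0.637) without the block and −0.84 (SE 0.18, adjusted p = 0.0308) with it, and with GC curves as well −0.90 (adjusted p = 0.00851 by edgeR). With 2i it was −0.14 (SE 0.40, adjusted p = 0.859), a 95% interval of −1.08 to 0.79.

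Irs2, the second substrate, was 0.94, 10.4 and 5.09 TPM in DMSO, 0.80, 5.99 and 6.49 TPM with AA, 2.09, 4.82 and 8.68 TPM with 2i and 4.14, 2.12 and 4.46 TPM with AA+2i. These ranges overlap completely, and the change with AA+2i was −0.32 (SE 0.86, adjusted p = 0.81 by edgeR). Irs2 has the most GC-rich transcript of the 10 genes (63.6%). Taking off the GC curve of each library brought its SD within conditions from 1.36 to 0.20 on the log2 scale, and in that fit it fell with AA+2i against DMSO (−1.29, SE 0.20, adjusted p = 0.000952), against 2i (−0.85, adjusted p = 0.0311) and against AA (−0.71, adjusted p = 0.0343 by edgeR). With the replicate block and no GC curves the change against DMSO was 0.23 (adjusted p = 0.817 by edgeR). Whether a fall of Irs2 with AA+2i is read therefore turns on the GC curves. At Irs2 those curves were themselves higher with AA+2i than in DMSO for letters A and C, and lower for B.

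**Figure D3:**
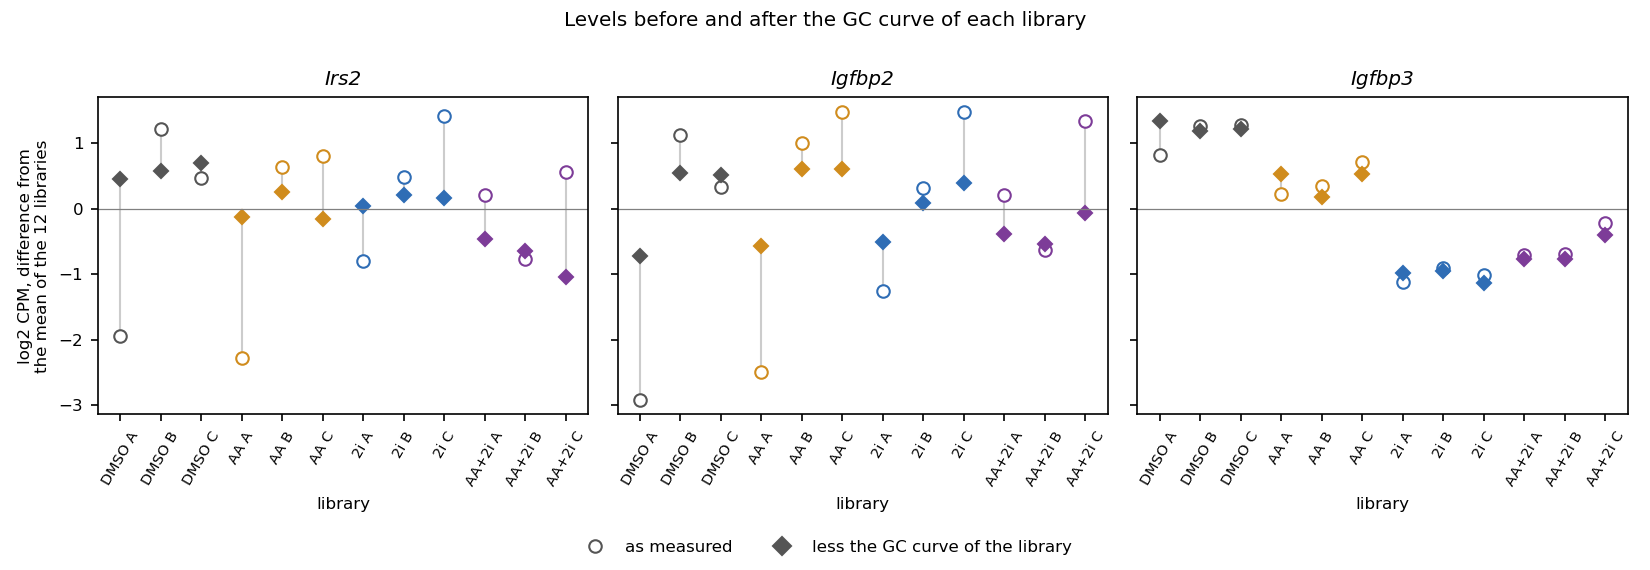
Log2 CPM of Irs2, Igfbp2 and Igfbp3 in each library as the difference from the mean of the 12 libraries (vertical axis), as measured (open circles) and after the GC curve of the library was taken off (filled diamonds), with a line joining the values of 1 library. The curves move Irs2 and Igfbp2 by over 2 log2 units in some libraries and Igfbp3 by 0.51 at most.

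Counted over the 9 tested genes, 1 was called with AA (Igfbp5, up), against 179 of all 13400 tested genes (1.34%). With 2i 2 were called (Igfbp3 and Igf1r, both down), against 592 of 13400 (4.42%), of which 213 rose and 379 fell. With AA+2i the same pair was called, against 1117 of 13400 (8.34%). AA+2i differed from AA in Igfbp3 alone, beside 817 genes (6.10%), and from 2i in 0 of the 9 by edgeR (1 at an unadjusted p under 0.05, and 0 by DESeq2), beside 122 genes (0.910%). The interaction was called for 0 of the 9 (2 at an unadjusted p under 0.05, and 0 by DESeq2) and for 2 of 13400 genes (0.0149%). Each of these shares amounts to less than 1 gene in 9.

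With the replicate block, 3 of the 9 genes were called with AA (Igfbp5 up, Igfbp3 and Irs1 down), where 4.43% of all tested genes were, and 4 with 2i (Igfbp4 up, Igfbp3, Igfbp7 and Igf1r down), where 13.3% were. With the block and GC curves it was 4 with AA (10.6% of all tested genes), Igf1r being added, and 4 with 2i (22.3%). With GC curves alone 3 of the 9 were called with AA+2i (Igfbp3, Igf1r and Irs2, 17.4% of all), 2 between AA+2i and 2i (Igfbp4 and Irs2, 3.96%) and 3 between AA+2i and AA (Igfbp3, Igfbp7 and Irs2, 13.0%). The TPM of the groups did not overlap for 2 of the 9 genes with AA (9.49% of all tested genes), 3 with 2i (19.9%), 2 with AA+2i (32.1%), 2 between AA+2i and 2i (16.1%) and 4 between AA+2i and AA (24.5%). The 9 genes had a median log2 fold change of 0.08 for AA, −0.14 for 2i and −0.32 for AA+2i, beside −0.01, −0.02 and −0.02 over all tested genes. The 3 comparisons share the DMSO libraries.

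**Figure D4:**
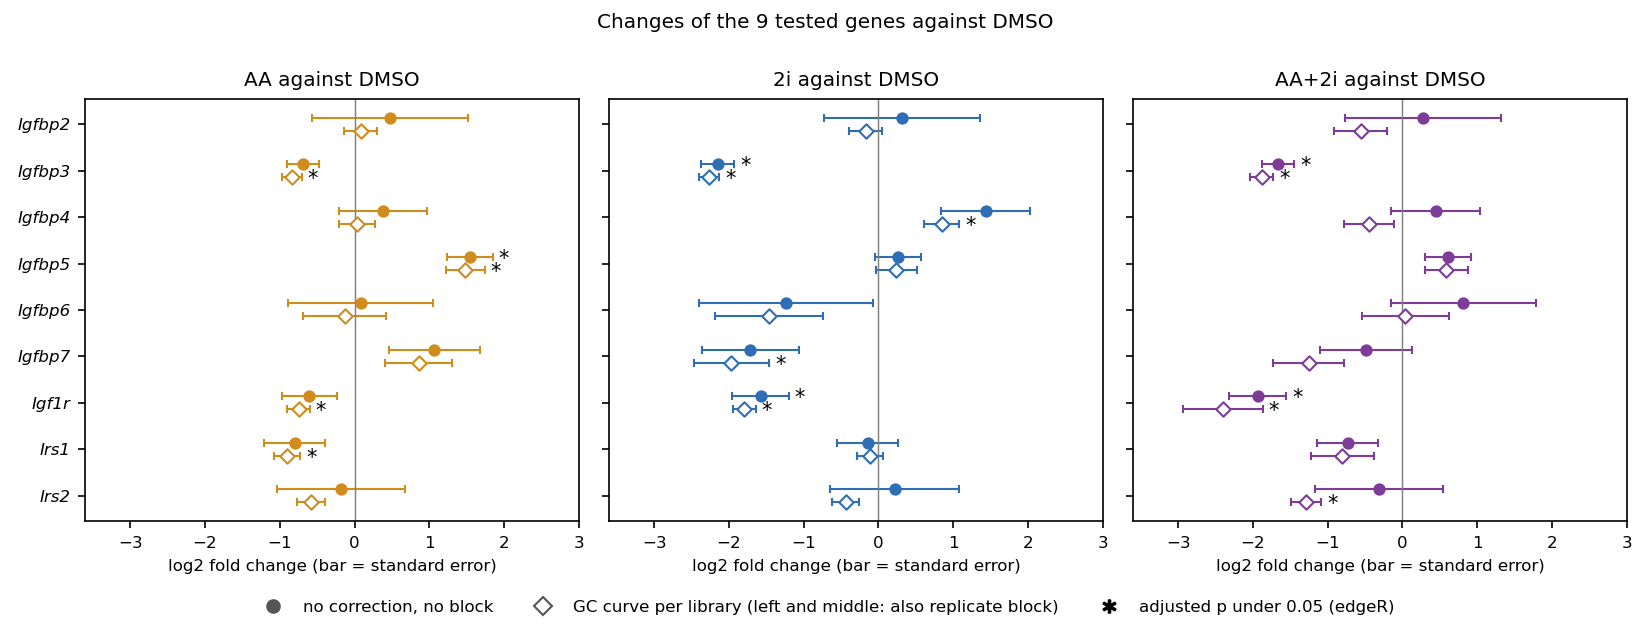
Log2 fold change of the 9 tested genes (rows) against DMSO for AA, 2i and AA+2i, with bars of 1 standard error; filled circles are from the fit without correction, open diamonds from the fit with a GC curve per library (for AA and 2i also with the replicate block), and a star marks an adjusted p under 0.05 by edgeR. Igfbp3 and Igf1r lie left of 0 with 2i and AA+2i in both fits, Igfbp5 right of 0 with AA, and Irs2 carries a star with AA+2i in the corrected fit only.

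Other genes of the pathway were read from a list of 52, of which 46 were tested. With AA 0 of the 46 were called by edgeR (2 at an unadjusted p under 0.05, and 2 by DESeq2), where 1.34% of all tested genes were. With 2i 1 fell (4.42% of all called), and with AA+2i 2 rose and 4 fell (8.34%). Under the replicate block the calls were 1 up and 2 down for AA, beside 4.43% of all genes, and 2 up and 7 down for 2i, beside 13.3%. The block and GC curves together gave 1 up and 4 down for AA, beside 10.6%, and 2 up and 10 down for 2i, beside 22.3%. With GC curves alone 2 rose and 9 fell with AA+2i (17.4%). Over the 46, the median change was −0.02 for AA, −0.08 for 2i and −0.14 for AA+2i, against −0.01, −0.02 and −0.02 over all tested genes. Igfbp1, Ins2, Insrr, Irs4, Grb14 and Pappa2 did not reach the count minimum and stood at no more than 0.47 TPM.

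Igf2, the fetal ligand that also signals through Igf1r, was the IGF ligand with measurable mRNA. The counting did not use strand, so reads of its antisense transcript would be counted with it. It was 5.82, 5.24 and 9.28 TPM in DMSO, 1.84, 1.77 and 4.0 TPM with AA, 9.54, 7.29 and 24.5 TPM with 2i and 23.1, 18.8 and 59.0 TPM with AA+2i. The AA libraries lay below and the AA+2i libraries above those of DMSO without overlap. Igf2 rose 5.95-fold with AA+2i against DMSO (2.57, SE 0.68, adjusted p = 0.0396 by edgeR) and 15.4-fold against AA (3.95, SE 0.72, adjusted p = 0.0084 by edgeR). The rise against DMSO was 3.45-fold with GC curves (1.78, adjusted p = 0.0398 by edgeR), and it ran from 1.73 without AA+2i C to 2.94 without DMSO C on the log2 scale. The call against DMSO was lost without DMSO A, DMSO B, DMSO C, AA B, AA+2i A or AA+2i C (adjusted p between 0.0569 and 0.181), that against AA without AA B (0.0503). Without letter A or B the call against DMSO was lost too (adjusted p between 0.0971 and 0.269), and without letter B that against AA (0.183). With the replicate block Igf2 was called down with AA (−1.45, adjusted p = 0.00706) and up with 2i (1.05, adjusted p = 0.0121 by edgeR). With GC curves as well the fall with AA stayed (−1.74, adjusted p = 0.00558) and the rise with 2i was lost (0.68, adjusted p = 0.122 by edgeR). The interaction of AA and 2i for Igf2 was 2.70 (SE 0.92, unadjusted p = 0.0137 by edgeR) and was not called after adjustment. With GC curves alone it was 2.90 (adjusted p = 0.449). It passed with the replicate block (2.76, adjusted p = 0.0178) and with block and GC curves (2.87, adjusted p = 0.023 by edgeR). Igf2r, the receptor that clears IGF2, was 18.6 to 25.9 TPM in the condition means with no call. Insr, the insulin receptor, which forms hybrids with Igf1r, was 27.5, 36.1 and 12.8 TPM in DMSO and 10.9, 11 and 4.88 TPM with AA+2i. Without block or GC curves it was not called against DMSO by edgeR (lowest adjusted p 0.0689), whereas with AA+2i it was called down by DESeq2 (−1.31, adjusted p = 0.0184) and with GC curves (−1.14, adjusted p = 0.0223 by edgeR). With 2i it fell under the replicate block (−0.90, adjusted p = 0.00889) and under the block with GC curves (−0.79, adjusted p = 0.00488 by edgeR). With AA it passed in the fit with block and GC curves (−0.55, adjusted p = 0.047 by edgeR).

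Igfbpl1, a binding-protein-like secreted protein, was 0.63, 1.07 and 1.5 TPM in DMSO, 3.10, 4.0 and 5.16 TPM with AA, 1.90, 2.19 and 3.79 TPM with 2i and 4.76, 5.44 and 8.69 TPM with AA+2i. All treated libraries lay above all DMSO libraries. It rose 7.0-fold with AA+2i (2.81, SE 0.47, adjusted p = 0.00456 by edgeR), and with the replicate block also with AA (2.01, adjusted p = 0.00099) and with 2i (1.5, adjusted p = 0.00135). Its call with AA+2i stayed without any single library and was lost without letter B (adjusted p = 0.196).

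The PAPPA and stanniocalcin system was lower with AA+2i. Pappa, the protease that cuts Igfbp4 and Igfbp5, was 0.46, 0.54 and 0.48 TPM in DMSO and 0.15, 0.09 and 0.06 TPM with AA+2i (9 to 17 expected counts), a 4.33-fold fall (−2.12, SE 0.38, adjusted p = 0.00625 by edgeR). With 2i alone Pappa was 0.16 to 0.28 TPM, also below DMSO without overlap (−1.05, adjusted p = 0.15 by edgeR). Under the replicate block that fall passed (−1.10, adjusted p = 0.0382 by edgeR). With AA alone Pappa was 0.28 to 0.59 TPM (−0.04, adjusted p = 0.992 by edgeR). Stc2, a stanniocalcin that inhibits PAPPA, was 1.58, 3.85 and 2.17 TPM in DMSO and 0.66, 0.45 and 0.46 TPM with AA+2i, a 4.12-fold fall (−2.04, SE 0.37, adjusted p = 0.00682 by edgeR). Its relative Stc1 had 13, 23 and 5 expected counts in DMSO and 1, 0 and 2 with AA+2i (adjusted p = 0.0164 by edgeR), and without AA+2i A or AA+2i B the adjusted p was 0.0536 to 0.0592. Without letter A or C it was 0.0666 to 0.124. The protease and its inhibitors thus had lower mRNA in the same libraries, Pappa and Stc2 without overlap with DMSO, and both calls were lost without letter B (adjusted p = 0.164 and 0.243) and without letter C (0.13 and 0.1).

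Of 11 tested adaptors and negative regulators at the receptor, Socs2, a feedback inhibitor of growth hormone and IGF signalling, fell with 2i from 110.4, 85.25 and 79.8 TPM in DMSO to 42.7, 35.6 and 33.4 TPM (−1.12, SE 0.23, adjusted p = 0.0185 by edgeR). This call was lost without DMSO A, 2i A, 2i B or 2i C (adjusted p between 0.0546 and 0.0893), and without letter B or C (between 0.233 and 0.258). With AA+2i Socs2 was 52.2 to 70.2 TPM, and its change against DMSO was not called (−0.42, adjusted p = 0.26 by edgeR). With GC curves that change was −0.12 (adjusted p = 0.629), and AA+2i was called above 2i (0.81, adjusted p = 0.0151 by edgeR). Of 19 genes of PI3K, AKT and TOR, Pik3cb, a catalytic subunit of PI3K, fell with AA+2i, from 36.7, 28.4 and 29.5 TPM to 17.2, 16.3 and 11.3 TPM (−0.90, SE 0.23, adjusted p = 0.0337 by edgeR). The Pik3cb call was lost without DMSO A, DMSO C, 2i B, AA+2i A, AA+2i B or AA+2i C (adjusted p between 0.0578 and 0.144). It was also lost without letter A, B or C (between 0.0666 and 0.285). Under the replicate block 3 of the 19, Pik3ca, Pik3cb and Rictor, were called down with 2i, and with the block and GC curves Pik3cd and Mtor were called down and Pik3r3 up as well. With GC curves alone 4 of the 19, Pik3ca, Pik3cb, Pik3cd and Rictor, were called down with AA+2i. Of the 3 FOXO genes 0 were called by edgeR without block or GC curves or by DESeq2 (0 at an unadjusted p under 0.05), and their changes with AA+2i were −0.62 to −0.11. With GC curves they were −1.02 to −0.43 with no call, and Foxo1 and Foxo4 were called down with AA+2i when the block was added.

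**Figure D5:**
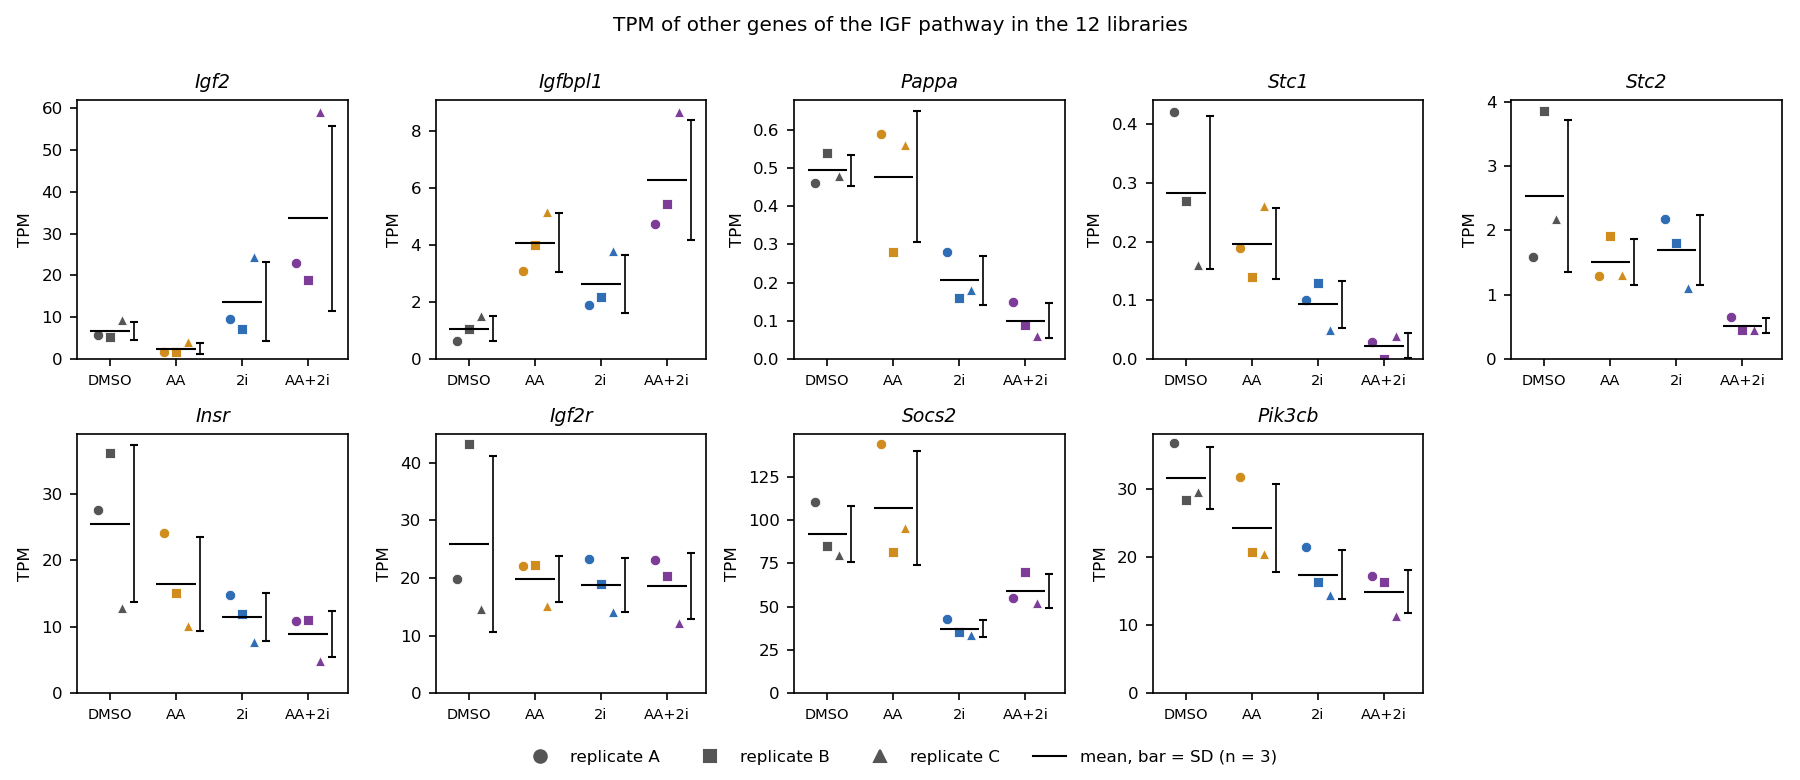
TPM of other IGF pathway genes (vertical axes, each from 0) in the libraries of each condition, with replicates A, B and C as circles, squares and triangles, means as lines and SDs of 3 libraries as bars. Igf2 is 1.77 to 4.0 TPM with AA and 18.8 to 59.0 TPM with AA+2i, and the AA+2i points of Pappa and Stc2 lie below all DMSO points.

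The genes whose level moved most like the called genes over the 12 libraries were found from the root mean square difference of log2 CPM, each gene centred on its own mean, among 13391 other tested genes. For Igfbp3 (SD over the libraries 0.85) they included Tm6sf1 (difference 0.25) and Penk (0.33), the precursor of enkephalin. Penk had mean levels of 56.2, 41.6, 11.4 and 17.7 TPM in DMSO, AA, 2i and AA+2i. For Igf1r (SD 0.86) they were Ltbp1 (0.20), which tethers latent TGF-β, Tspan7 (0.21) and Egfr (0.22), the EGF receptor. Egfr had mean levels of 59.3, 41.8, 18.7 and 14.6 TPM in the same order. For Igfbp5 (SD 0.64) they were Prkch (0.29), Rsph1 (0.32) and Fam109b (0.33). After the GC curves the difference was 0.32 for Penk, 0.50 for Tm6sf1, 0.73 for Tspan7 and 0.48 for Egfr, so the likeness of Tm6sf1, Tspan7 and Egfr rested in part on values that the curves move.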

How the data were processed

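RNA of pre-iPSCs was sequenced on day 2 in 4 conditions with 3 lettered replicates each. The authors trimmed and quality-filtered the single-end reads, aligned them to the RefSeq genes of mm9 (Bowtie and RSEM 1.2.4 in the submitters' processing notes) and deposited expected counts, which RSEM estimates and which need not be whole, and TPM. In 1 library 1 TPM cell, of a gene not used here, was malformed and was recomputed. The libraries held 16173322 to 54392719 expected counts; counting error is small beside the spread between replicates except for genes with few counts.

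After rounding, the expected counts entered the quasi-likelihood test of edgeR 4.0.16 (R 4.3.3), with RLE factors and all 4 conditions in 1 model (8 residual degrees of freedom). A gene was tested where 3 or more libraries had 10 counts or more, which 13400 did, and p-values were adjusted by Benjamini-Hochberg and called under 0.05. Each SE was derived from the F statistic of the test, and intervals use that SE with 8 degrees of freedom. Alternatives were TMM factors, DESeq2 1.42.0, limma 3.58.1 on log2(TPM + 1) and log2(TPM + 0.1), no filter or 10 counts in all libraries, a model of just the compared groups, a GC curve per library (loess, span 0.4, as an offset; GC known for 99.23% of tested genes), the replicate letter as a block, GC with block, and leaving out letters or libraries. Whether the letters pair the libraries was checked by the correlation of deviations from the condition means. It was 0.894, 0.694 and 0.608 for DMSO and AA and 0.787, 0.177 and 0.513 for DMSO and 2i, all above 0.1. Blocked values therefore stand beside those comparisons, whereas for AA+2i 1 of 3 letters fell below 0.1 with each other condition. Libraries of different letters could correlate as highly (0.628 for DMSO B and AA C, 0.564 for DMSO B and 2i C), while others were negative (−0.827 for DMSO A and AA C). The check thus cannot show that the letters pair the libraries, and the blocked calls assume that they do. The block was fitted over all 12 libraries. Any 2 libraries differed in at least 14945 genes. The test was tried on simulated data for 2i against DMSO over 13400 genes. It found 4.5% of 200 genes given a log2 change of 1 and 81% of 200 given a change of 2. Of its calls 0% and 5.3% were false. A missing call therefore does not show that a gene was unchanged.

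The 10 genes and the lists were chosen with earlier results of these data known. Named pathway genes are those with an adjusted p under 0.05 against DMSO, plus Igf2, Igf2r and Insr; for each called gene of the 10, the 3 most similar genes are named, except for 1 that is not reported here. Promoters are from RefSeq (GRCm38.p6), and Python 3.11.15 was used. Columns of FPKM were not used beyond the malformed cell.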

Additional observations from a re-analysis of the deposited data

Results flagged for a closer look

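For Igfbp3 all AA libraries lay below those of DMSO (44.7 to 57.8 against 62.3 to 100.3 TPM), whereas all AA+2i libraries lay above those of 2i (20.7 to 24.4 against 15.1 to 17.4 TPM). Neither difference passed by edgeR (adjusted p = 0.215 and 0.496). The test of this difference, the interaction, gave 1.18 on the log2 scale (SE 0.30, adjusted p = 0.938 by edgeR over all tested genes), which did not pass. With GC curves it was 1.22 (adjusted p = 0.113), and with GC curves and the replicate block 1.22 (adjusted p = 0.0295).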

How the results depend on the processing

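Of the 9 tested genes, 1 was called for AA against DMSO, 2 for 2i, 2 for AA+2i, 0 for AA+2i against 2i, 1 for AA+2i against AA and 0 for the interaction. TMM factors and both count filters gave the same counts. For AA against DMSO the count was 0 with limma on log2(TPM + 0.1) and in the model of only the groups compared, 3 with the replicate block, 2 with the GC correction, 4 with both, and 2 with the GC correction without DMSO A, which was added after the data were seen. For 2i against DMSO it was 1 with limma on log2(TPM + 1), 1 on log2(TPM + 0.1) and 1 with only the groups compared, where Igf1r was lost, 3 with the GC correction (Igfbp7 added), 2 with the GC correction without DMSO A (Igfbp3 and Igfbp7, Igf1r lost), and 4 with the replicate block, without and with the GC correction. For AA+2i against DMSO it was 4 with the GC correction and replicate block. For AA+2i against 2i it was 2 with the GC correction, also with the replicate block or without DMSO A. For AA+2i against AA it was 3 with DESeq2, 2 with limma on log2(TPM + 1), 0 with only the groups compared, 3 with the replicate block, 3 with the GC correction, 5 with both and 4 with the GC correction without DMSO A. The interaction was called for 1 gene, Igfbp3, with the GC correction and replicate block. Leaving out a letter or a library gave 0 to 1 for AA, 0 to 2 for 2i, 0 to 2 for AA+2i and 0 to 2 for AA+2i against AA. No call was reversed in any of these settings. The cause of these differences was not tested.

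In AA+2i the libraries of 1 letter did not deviate together in every case (r from −0.588 to 0.81 over its comparisons), so the replicate block there is an alternative only: it added Irs1 against DMSO, and Igf1r and Igfbp7 against AA. For AA and 2i against DMSO the blocked calls also rest on a pairing that was not shown. Depth limits Igf1, Igfbp6 and Stc1, which had few counts. The GC curves cut the SD within conditions most for Irs2 (1.36 to 0.20) and Igfbp2 (1.74 to 0.56). Over all 13400 genes, 179, 592 and 1117 were called with AA, 2i and AA+2i, against 454, 1099 and 1879 by DESeq2 and 0, 187 and 601 with only the groups compared.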
